A study of Mus musculus with 10 samples.

Results

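The genes described here encode 10 receptors of natural killer (NK) cells: Ncr1, Klrb1c, Klrd1, Klrc1, Klrc2, Klre1, Klrg1, Klra4, Klra7 and Klra8. They were taken by gene symbol from a table of 36009 rows, in which 26378 named genes were counted once rows of the same symbol had been summed, and each of the 10 symbols was present. The RNA came from WEHI-164 fibrosarcomas, a mouse tumor line grown under the skin of wild-type female BALB/c mice, which were young adults according to the study's methods. Each tumor was partially resected, the resected piece was sequenced as polyA RNA with paired reads of 150 bases, and a hydrogel releasing poly(I:C), a double-stranded RNA mimic, was then laid on the residual tumor in every animal. The pieces had therefore seen no poly(I:C) when they were sampled, though the mice had been given an analgesic and an anesthetic for the operation. The 5 responders (RS; tumors 5, 9, 10, 11 and 12) later regressed completely, and the growth of the 5 non-responders (NR; tumors 1, 2, 3, 6 and 7) was not delayed, so the groups were named by outcome and not assigned. All the mice carried 1 transplanted line in 1 inbred strain and received poly(I:C). The study also had mice given an empty hydrogel, which are not among these samples. The libraries held between 16002778 estimated counts (responder 9) and 31160578 (responder 11), and those of the non-responders between 19863697 and 28275958.

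NK cells are innate lymphocytes that read a balance of activating and inhibitory receptors. Ncr1 encodes NKp46, an activating receptor of the immunoglobulin family that is the most widely used marker of mouse NK cells and ILC1. The other genes encode C-type lectin-like receptors of the NK gene complex. Klrb1c encodes NKR-P1C, the NK1.1 antigen of C57BL/6 mice. Klrd1 encodes CD94, which pairs with NKG2A (Klrc1, inhibitory) or NKG2C (Klrc2, activating) to bind Qa-1, the product of H2-T23, on target cells. Klre1 encodes a further lectin-like chain that forms heterodimers in NK cells. Klrg1 encodes an inhibitory receptor for cadherins that marks mature NK cells and also antigen-experienced T cells, some regulatory T cells and ILC2. Klra4, Klra7 and Klra8 encode Ly49D (activating), Ly49G (inhibitory) and Ly49H (activating). The Ly49 cluster differs in gene content between strains: that of BALB/c is smaller than that of C57BL/6, the strain of the reference genome, and lacks Ly49D and Ly49H. In tumors, CD94, NKG2A and KLRG1 are carried by T cells as well as NK cells.

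In the annotation of the reference genome (GENCODE vM21 on GRCm38), Ncr1 lies alone on the plus strand of chromosome 7 at chr7:4337724-4345164. The other 9 genes lie on chromosome 6. Klrg1 stands apart at chr6:122270596-122282882. Klrb1c follows at chr6:128778485-128789215, where the protein-coding model Gm44511 overlaps it on the same strand. Klre1 (chr6:129577905-129585827) and Klrd1 (chr6:129591782-129598775) are neighbors on the plus strand, and Klrc2 (chr6:129647496-129660689) and Klrc1 (chr6:129666015-129678973) are neighbors on the minus strand. The Ly49 genes lie further along, Klra4 at chr6:130043731-130067271, Klra8 at chr6:130115226-130129898 and Klra7 at chr6:130218605-130233322.

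Because Kallisto assigns reads by short words of sequence, the share of each gene's 31-base words found in no other annotated gene bears on how well its counts can be told from those of its relatives. The annotation release behind the authors' index is not given in the sources used here, so the shares are those of the annotation named above and may differ in the index. This share was 100% for Ncr1, Klrd1 and Klrg1, 99% for Klre1, 82.5% for Klra4, 78.8% for Klrb1c, 78.4% for Klrc2, 75.3% for Klra7, 46.9% for Klrc1 and 45% for Klra8. Klrc1 and Klrc2 were the pair for which this mattered most, since 49.6% of the words of Klrc1 also occurred in Klrc2. Their coding sequences, of 732 and 714 bases, share an identical run of 100 bases that closes both, from base 633 to 732 of Klrc1 and from base 615 to 714 of Klrc2, counted from the start codon. It is printed because the words inside it match the inhibitory and the activating receptor alike. It is shorter than a read, so a read that covers it can still hold words of 1 receptor alone. It was read from the transcripts of the same annotation, 5′ to 3′ in the sense of the genes.
Shared end of Klrc1 and Klrc2: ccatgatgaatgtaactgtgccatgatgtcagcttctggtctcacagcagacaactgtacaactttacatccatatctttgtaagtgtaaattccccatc

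Of the 10 genes, 7 passed the filter on low values and 3 Ly49 genes did not. CPM are counts scaled to a common library size by TMM, a measure of level that is not corrected for gene length. The mean level of all 7 was higher in responders, and each of them reached the filter in at least 3 tumors of both groups. Over all 15767 features tested, 48.6% had a log2 fold change above 0. The median log2 fold change of the 7 was 0.89, against −0.0036 over all features. No feature passed the adjusted threshold of 0.05 in edgeR's quasi-likelihood test, which is 0% of those tested, with 1294 below an unadjusted p of 0.05 in either direction. DESeq2 called 1 feature, Col6a2, which was named after its value was seen and is not among these receptors, and limma called 0. Of the 7 receptor genes, 6 had an unadjusted p below 0.05 and were higher in responders, where 4.2% of all features did. Klrd1 stood at the threshold, with an edgeR p that rounds to 0.05. The count of 6 was 5 with edgeR's own filter on low values (filterByExpr). It was 7 without responder 5 but 3 without responder 10, 2 without responder 11, 3 without non-responder 2 and 3 without non-responder 7. Since the genes were chosen with results of these data known, the counts describe them and are not a test. In RNA from whole tissue, more NK cells and more receptor RNA per cell cannot be told apart.

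**Figure D1:**
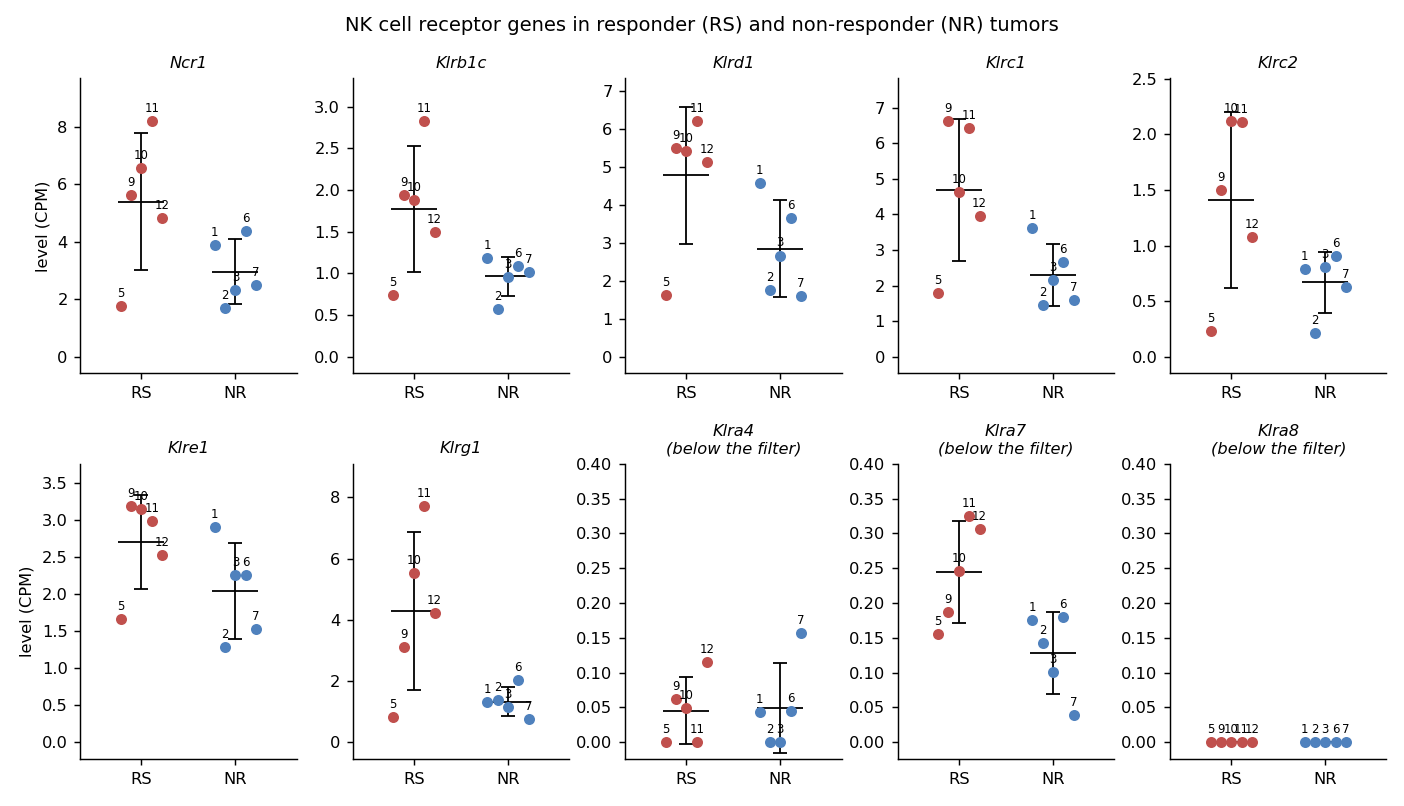
Level of each receptor gene in CPM (linear axis, a scale for each panel) in the 5 responders (RS) and 5 non-responders (NR), with tumor numbers beside the points. Horizontal lines are means and bars SD. In the 7 genes past the filter responder 5 is the lowest responder, and the Klra8 panel is at 0 throughout.

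Ncr1, the NKp46 gene, was detected in every tumor, with 45 to 252 counts. Its level in responders 5, 9, 10, 11 and 12 was 1.75, 5.63, 6.56, 8.20 and 4.83 CPM, and in non-responders 1, 2, 3, 6 and 7 it was 3.87, 1.68, 2.31, 4.38 and 2.50 CPM. Thus 4 responders lay above every non-responder, while responder 5 lay beside the lowest of them. Responders averaged 5.39 ± 2.39 CPM and non-responders 2.95 ± 1.13 CPM (SD, n = 5). On the log2 scale the fold change was 0.88 ± 0.35 (SE), with an edgeR adjusted p of 0.586.

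Klrb1c, the NK1.1 gene, had the same order of tumors at its ends. It stood at 0.738, 1.94, 1.88, 2.83 and 1.50 CPM in responders 5, 9, 10, 11 and 12, and at 1.19, 0.572, 0.956, 1.08 and 1.02 CPM in non-responders 1, 2, 3, 6 and 7. Responders 9 to 12 again all lay above the highest non-responder. The group means were 1.78 ± 0.76 and 0.96 ± 0.24 CPM, and the log2 fold change was 0.89 ± 0.32 (SE; edgeR adjusted p = 0.580). Its counts were low, from 16 to 87, and 13.1% of its 31-base words are shared with the overlapping Gm44511.

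Among the CD94 and NKG2 genes, Klrd1 (CD94) showed the clearest separation of responder 5. Klrd1 was at 1.63 CPM in that tumor and at 5.50, 5.43, 6.21 and 5.14 CPM in responders 9, 10, 11 and 12. Non-responders 1, 2, 3, 6 and 7 had 4.58, 1.75, 2.67, 3.66 and 1.60 CPM. The 4 high responders thus lay in a narrow band, and the non-responders covered most of the interval below it. The log2 fold change of Klrd1 was 0.75 ± 0.35 (SE; edgeR adjusted p = 0.607).

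Klrc1, which encodes the inhibitory NKG2A, stood at 1.79, 6.63, 4.64, 6.44 and 3.95 CPM in responders 5, 9, 10, 11 and 12. In non-responders 1, 2, 3, 6 and 7 it stood at 3.61, 1.47, 2.16, 2.66 and 1.60 CPM. The highest non-responder was close to responder 12. The log2 fold change of Klrc1 was 1.03 ± 0.33 (SE; edgeR adjusted p = 0.580).

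Klrc2, which encodes the activating NKG2C, was measured at 0.233, 1.50, 2.12, 2.11 and 1.07 CPM in the responders in the same order. The non-responders had 0.792, 0.214, 0.805, 0.903 and 0.626 CPM. Responder 5 and non-responder 2 were the low pair, with 6 counts each. The log2 fold change was 1.09 ± 0.48 (SE; edgeR adjusted p = 0.597), the widest error among the 7 genes. The log2 ratio of Klrc1 to Klrc2, which sets the inhibitory against the activating partner of CD94, was 1.23 ± 0.27 in responders and 0.96 ± 0.26 in non-responders (SD). This difference of 0.27 did not pass the test (exact two-sided permutation p = 0.151, adjusted over 4 ratios 0.201), and with a pseudocount of 0.1 in place of 1 CPM it was 0.13 (exact permutation p = 0.69). For the log2 ratio of Klrd1 to Ncr1, responders minus non-responders gave −0.07 (exact permutation p = 0.635).

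Klre1 was the flattest of the genes past the filter. It ranged over 1.67, 3.19, 3.16, 2.99 and 2.53 CPM in responders and over 2.90, 1.29, 2.26, 2.26 and 1.53 CPM in non-responders, in the order used above. Non-responder 1 lay above responder 12, so only 3 responders exceeded every non-responder. The log2 fold change was 0.41 ± 0.24 (SE; edgeR adjusted p = 0.680), and 0.27 without non-responder 2.

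Klrg1 had the largest fold change of the 7. Responders 5, 9, 10, 11 and 12 had 0.816, 3.13, 5.53, 7.71 and 4.22 CPM, and non-responders 1, 2, 3, 6 and 7 had 1.32, 1.39, 1.16, 2.03 and 0.743 CPM. The means were 4.28 ± 2.58 and 1.33 ± 0.47 CPM, so the spread was wide among responders and narrow among non-responders. The log2 fold change was 1.70 ± 0.45 (SE; edgeR adjusted p = 0.580), which is 3.25-fold. Klrg1 shares no 31-base word with another gene.

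The Ly49 genes were at or near the limit of detection. Klra8 (Ly49H) had 0 counts in all 10 tumors, which allows up to 0.0126 CPM over the pooled libraries (3 counts, for counting error only). Klra4 (Ly49D) had 5 counts in all responders together and 6 in all non-responders. Klra7 (Ly49G) had 4, 3, 5, 10 and 8 counts in responders and 4, 4, 2, 4 and 1 in non-responders, with mean levels of 0.244 ± 0.073 and 0.128 ± 0.059 CPM. In CPM, responder 5 overlapped the non-responders and the other 4 responders lay above them all. The margin was narrow, with 3 counts in responder 9 (0.188 CPM) and 4 in non-responder 6 (0.181 CPM). The order of these tumors thus rests on the scaling by library size. Without the filter Klra7 had a log2 fold change of 0.94 (edgeR adjusted p = 0.715). BALB/c lacks Ly49D and Ly49H, as stated above, so the counts of Klra4 and Klra8 are not levels of those receptors in these mice. How reads from the Ly49 genes of BALB/c fall on the C57BL/6 reference was not tested.

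**Figure D2:**
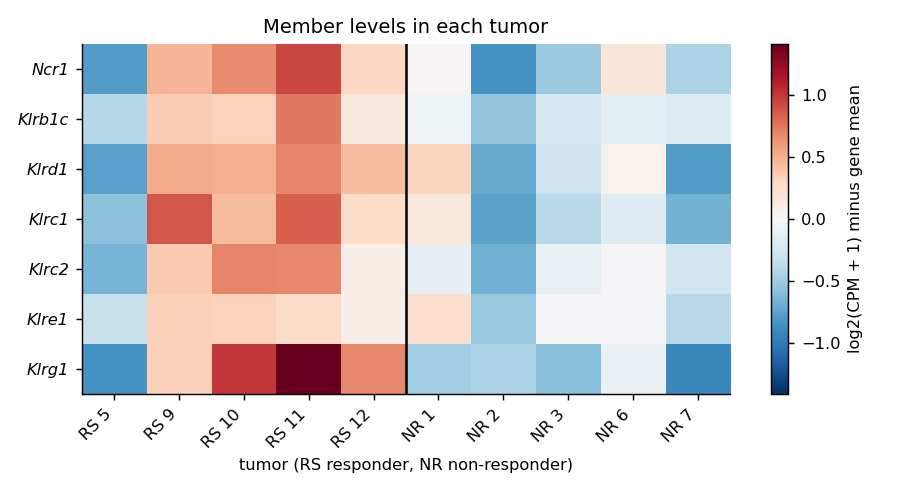
Level of the 7 genes past the filter in each tumor, as log2(CPM + 1) minus the mean of that gene over the 10 tumors (red above, blue below). The genes vary together: responders 9 to 12 are above the mean in every gene, and responder 5 and non-responders 2, 3 and 7 are below it in every gene.

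The 7 genes varied as a block from tumor to tumor. Their summed level was 8.63, 27.5, 29.3, 36.5 and 23.2 CPM in responders 5, 9, 10, 11 and 12, and 18.3, 8.36, 12.3, 17.0 and 9.63 CPM in non-responders 1, 2, 3, 6 and 7. Responder 11 was the highest of all tumors in 4 genes, responder 9 in 2 and responder 10 in 1. Non-responder 2 was the lowest in 5 and non-responder 7 in 2. Over the 21 pairs of these genes Pearson's r across the 10 tumors ran from 0.71 to 0.95, with a median of 0.89.

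Responder 5 was the exception within its group. It was the lowest responder in all 7 genes and below the median of the non-responders in all 7, though never below all of them. No gene of the 7 had all 5 responders above all 5 non-responders, which 0.336% of the features tested had. For 6 of the 7, all but Klre1, the other 4 responders were above every non-responder, as were 2.11% of the features. That tumor was singled out after its values were seen. Its library held 25627512 estimated counts, and the cause of its low values was not tested.

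**Figure D3:**
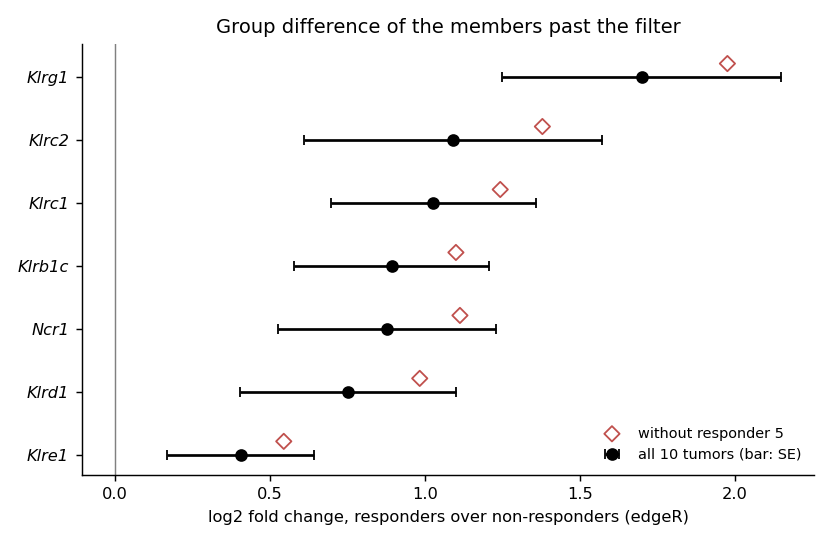
Log2 fold change of the 7 genes past the filter, responders over non-responders, from edgeR with all 10 tumors (black points, bars are SE) and without responder 5 (open red diamonds). All values are above 0, and each is larger without responder 5.

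Without responder 5, edgeR called 9 of 15695 features, which is 0.0573%. Klrg1 was among them, with a log2 fold change of 1.98 (adjusted p = 0.0391), and so was Gzmb, the granzyme B gene. The other 6 receptor genes had adjusted p-values from 0.0779 for Klrc1 to 0.303 for Klre1. All 7 were then below an unadjusted p of 0.05 and higher in responders, as were 6.84% of all features. Leaving out responder 11 moved the fold changes the other way, to 1.36 for Klrg1, 0.66 for Ncr1 and 0.64 for Klrb1c on the log2 scale.

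Levels can be compared between genes once divided by transcript length (CPM per kb of the median coding-transcript length). Over all 10 tumors the order of the receptor genes was Klrc1 with 4.64, Klrd1 with 4.27, Ncr1 with 2.82, Klrg1 with 1.98, Klre1 with 1.84, Klrb1c with 1.07, Klrc2 with 0.946, Klra7 with 0.176, Klra4 with 0.038 and Klra8 with 0 CPM per kb. Klrc1 and Klrd1 did not differ beyond their spread, with 6.23 ± 2.64 and 5.34 ± 2.02 CPM per kb in responders (SD, n = 5). In non-responders their order turned, with 3.06 ± 1.16 for Klrc1 and 3.19 ± 1.42 CPM per kb for Klrd1. Klrg1 and Klre1 did not differ beyond their spread in responders, at 3.03 ± 1.83 and 2.09 ± 0.49 CPM per kb. In non-responders Klre1 was the higher of the pair, with 1.58 ± 0.50 CPM per kb against 0.94 ± 0.33 for Klrg1. The order also rests on the length chosen. With the longest transcript Klrc1 falls to 1.76, Klrb1c to 0.522 and Klrc2 to 0.369 CPM per kb, while Klrd1 stays at 4.15 CPM per kb. Klra2, a Ly49 gene known from myeloid cells, had 10.6 CPM per kb with the same mean in both groups, and Klrk1 (NKG2D) had 7.62 CPM per kb. With the longest transcript these were 8.60 and 3.02 CPM per kb.

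**Figure D4:**
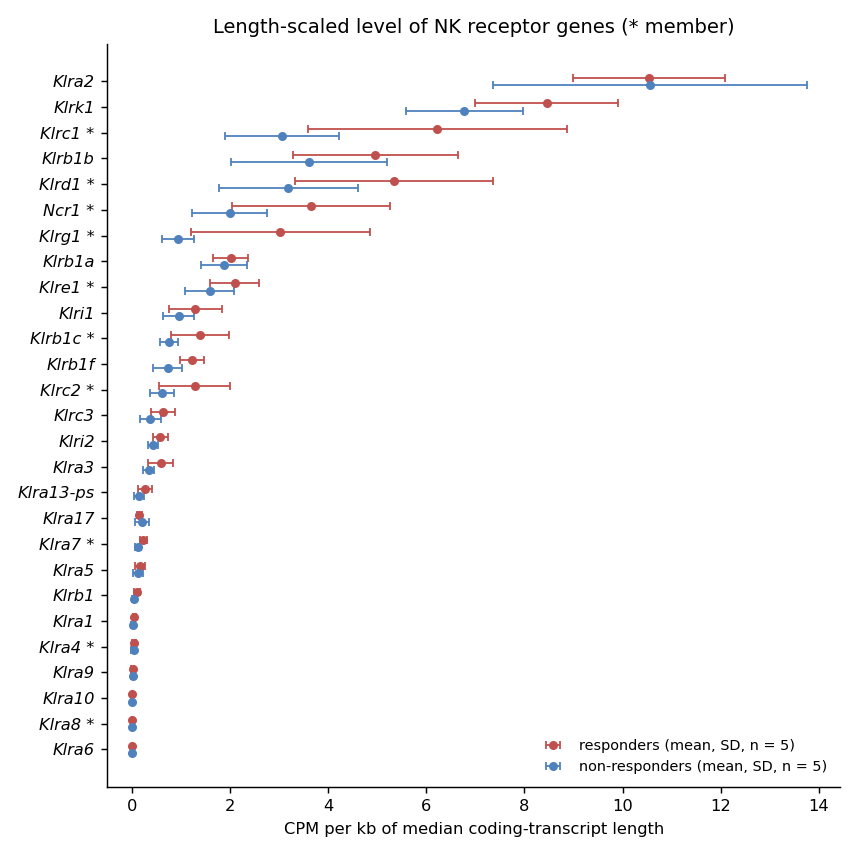
Mean level of Ncr1 and of the lectin-like receptor genes of the NK gene complex in CPM per kb of median coding-transcript length (linear axis), for responders (red) and non-responders (blue). Bars are SD over 5 tumors and asterisks mark the 10 genes described here. Klra2 and Klrk1 are the highest, and Klra4 and Klra8 lie at or near 0.

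Across the 10 tumors Ncr1 moved with each of the other receptor genes past the filter, on the log2(CPM + 1) scale. The strongest relations were with Klrc2 and Klrb1c. For Klrc2 Pearson's r was 0.95 (permutation p = 3e-05, adjusted over 14 genes 0.00021) and Spearman's rho 0.95 (permutation p = 0.0001, adjusted 0.0007). For Klrb1c r was 0.95 (permutation p = 2e-05, adjusted 0.00021) and rho 0.98 (permutation p = 3e-05, adjusted 0.00042). The weakest was with Klre1, with r of 0.87 (permutation p = 0.00122, adjusted 0.00171) and rho of 0.84 (permutation p = 0.0036, adjusted 0.0056). Deviations from the group means, which remove the difference between responders and non-responders, gave r from 0.83 for Klre1 to 0.93 for Klrc2. Without responder 5 and non-responder 2, the tumors farthest from the median of Ncr1, r with Klre1 was 0.77 (exact permutation p = 0.0229) and r with Klrg1 was 0.94 (exact permutation p = 0.000694).

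**Figure D5:**
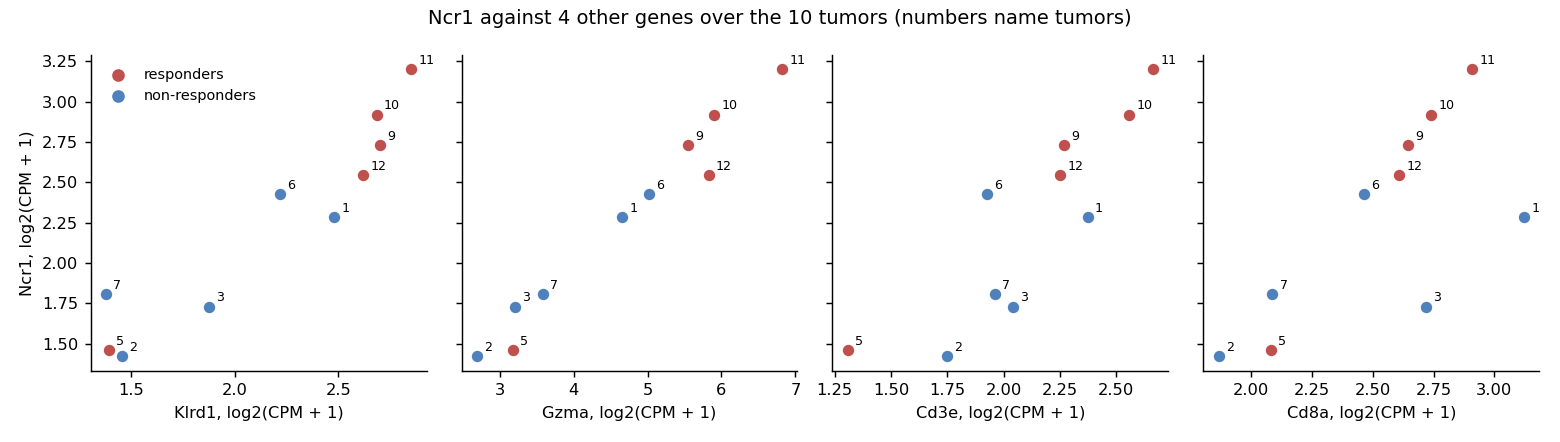
Level of Ncr1 (vertical axis) against Klrd1 (CD94), Gzma (granzyme A), Cd3e (T cell receptor complex) and Cd8a (CD8 T cells), each as log2(CPM + 1), in 5 responders (red) and 5 non-responders (blue) named by tumor number. Points follow a line most closely for Gzma, and non-responder 1 lies furthest to the right for Cd8a.

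Genes of T cells and of all leukocytes also moved with Ncr1. Pearson's r was 0.87 for Cd3e, a chain of the T cell receptor complex (permutation p = 0.00092, adjusted 0.00143; rho 0.84, permutation p = 0.00351, adjusted 0.0056). It was 0.81 for Ptprc, the pan-leukocyte gene CD45 (permutation p = 0.00534, adjusted 0.00623; rho 0.78, permutation p = 0.0102, adjusted 0.0119), and 0.68 without responder 5 and non-responder 2 (exact permutation p = 0.0576). The T-box factor gene Eomes had r of 0.89, Tbx21 of 0.88, and the cytotoxic genes Prf1 (perforin) and Gzmb of 0.93 and 0.94. For Cd8a r was 0.71 (permutation p = 0.0234, adjusted 0.0253; rho 0.66, permutation p = 0.044, adjusted 0.044). It was 0.43 without responder 5 and non-responder 2, the tumors lowest in Ncr1 (exact permutation p = 0.293). Leaving out the extremes of Ncr1 narrows its range, which by itself can lower r, so this value does not decide whether the relation rests on them. With 1 tumor left out, r for Cd8a ran from 0.61 without non-responder 2 (permutation p = 0.0837) to 0.82 without non-responder 1 (permutation p = 0.0089). The macrophage gene Adgre1 had r of 0.68 (permutation p = 0.0347, adjusted 0.0347) and 0.55 without those tumors (exact permutation p = 0.157).

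Of 13065 features with a mean of at least 1 CPM, the 8 named genes whose levels followed Ncr1 most closely over the 10 tumors were Thy1, Gzma, Zap70, Gimap6, Ltb, Ptprcap, Vopp1 and Lax1, with r from 0.97 to 0.99. They were picked for this likeness. The receptor genes ranked from 26 (Klrc2) to 181 (Klre1) in the same order. Thy1 encodes a surface glycoprotein of T cells and fibroblasts, Gzma a granule protease of cytotoxic lymphocytes, Zap70 a kinase of T cell and NK cell receptors, and Ltb a membrane-bound lymphotoxin. Gzma differed most between the groups on average, with 56.1 ± 37.2 CPM against 16.1 ± 11.2 CPM (responders first; SD, n = 5).

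Ncr1 was also set against a gene of all leukocytes and a gene of T cells in the same tumor. The log2 ratio of Ncr1 to Ptprc, each as CPM + 1, was −4.32 ± 0.49 in responders and −4.76 ± 0.36 in non-responders (SD), a difference of 0.44 (exact two-sided permutation p = 0.135, adjusted over 4 ratios 0.201). The log2 ratio of Ncr1 to Cd3e was 0.150, 0.461, 0.362, 0.538 and 0.294 in responders 5, 9, 10, 11 and 12. In non-responders 1, 2, 3, 6 and 7 it was −0.088, −0.326, −0.314, 0.502 and −0.153. All responders, tumor 5 included, lay above 4 of the non-responders, and non-responder 6 lay among the responders. The difference of 0.44 had an exact permutation p of 0.0397, which adjustment over the 4 ratios raised to 0.159. A design of 5 against 5 cannot give a p below 0.00794. With Ptprc as a covariate in edgeR, the log2 fold changes of the 7 receptor genes ran from 0.02 for Klre1 to 0.90 for Klrg1, and 0 had an unadjusted p below 0.05. Calls were fewer over the whole table as well, since 1.43% of the features were higher in responders at that p in this fit, against 4.2% without the covariate. With Cd3e as the covariate the log2 fold changes ran from 0.22 for Klre1 to 1.02 for Klrg1, and 3 genes had an unadjusted p below 0.05, beside 3.18% of the features.

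The genes alone do not place these receptors on NK cells, so markers of the cells that may carry them were set beside them. Of 8 genes listed for NK-like cells, each was tested, 7 had a higher mean in responders and 5 had an unadjusted p below 0.05. Among all features tested, 4.2% were higher in responders at that p, and 48.6% had a log2 fold change above 0. Since 3 of the 8 (Ncr1, Klrb1c and Klre1) are receptors described here, only the other 5 add to them, and of these 4 had a higher mean in responders and 3 (Eomes, Gzma and Il2rb) an unadjusted p below 0.05. Gzma was the most abundant over all tumors, though in non-responders Il2rb was higher, with 22.6 against 16.1 CPM. S1pr5 and Itga2 stood apart from the rest, with log2 fold changes of −0.09 ± 0.28 and 0.17 ± 0.15 (SE). Of 14 T cell genes, 12 were in the table and tested. Their means were all higher in responders, and 0 had an unadjusted p below 0.05, with Trbc2 the most abundant. The summed level of the T cell genes was 36.4, 66.6, 69.6, 76.0 and 54.5 CPM in responders 5, 9, 10, 11 and 12. In non-responders 1, 2, 3, 6 and 7 it was 64.6, 39.3, 48.4, 49.2 and 42.6 CPM. Responder 5 thus had the lowest T cell sum of the 10 tumors, and non-responder 1 reached the high responders. Cd3e averaged 3.85 ± 1.49 CPM against 3.07 ± 0.68 CPM (responders first), and Cd8a 5.15 ± 1.21 and 4.74 ± 2.01 CPM (SD, n = 5).

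The counts for further cell types stand beside the same shares of all features, 4.2% higher at an unadjusted p below 0.05 and 48.6% above 0. Of 5 genes of ILC1 and tissue-resident cells, 4 were measured, all 4 had a higher mean in responders and 3 an unadjusted p below 0.05. Their sum was 66.7 ± 7.6 CPM against 52.4 ± 7.4 CPM, with Itga1 the most abundant. By tumor it was 56.1, 75.9, 68.1, 70.4 and 62.8 CPM in responders 5, 9, 10, 11 and 12, and 64.5, 47.6, 54.4, 49.5 and 46.2 CPM in non-responders 1, 2, 3, 6 and 7. Of 6 regulatory T cell genes 5 were tested, each of them higher on average in responders and 2 an unadjusted p below 0.05, and their sum was 37.1 ± 8.5 and 26.4 ± 4.6 CPM, with Il2ra the most abundant. That sum was 22.4, 40.4, 40.4, 43.9 and 38.6 CPM in the responders and 34.5, 24.0, 25.2, 24.2 and 24.2 CPM in the non-responders, in the same order. Responders 9 to 12 lay above every non-responder, and responder 5 was the lowest of the 10 tumors. Foxp3 itself had 4.15 ± 0.92 and 3.38 ± 0.50 CPM. Ctla4, the gene of this list under the filter, had at most 9 counts in a tumor and a lower mean in responders (0.013 ± 0.029 against 0.064 ± 0.144 CPM). Of 6 ILC2 genes 3 passed, with Il1rl1 the most abundant, all 3 had a higher mean in responders and 0 an unadjusted p below 0.05. Il5 and Il13 were among the genes under the filter, with at most 7 and 17 counts in a tumor. Of the γδ T cell list, 1 of 5 genes was in the table. Of 6 mast cell and basophil genes, all had a higher mean in responders and 4 an unadjusted p below 0.05, with a sum of 195 ± 43 CPM against 141 ± 38 CPM and Mcpt4 the most abundant. Responder 9, with 154 CPM, was the lowest responder in the mast cell sum, and non-responder 1, with 203 CPM, the highest non-responder. The part of ILC1, regulatory T cells, ILC2, γδ T cells and mast cells in the receptor levels was not tested.

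Ligands of these receptors and of their close relatives were measured in the same RNA, which includes tumor cells. Of 12 listed ligand genes 8 were tested, each with its higher mean in responders, 2 (H2-T23 and Clec2i) with an unadjusted p below 0.05. Their median log2 fold change was 0.18, against −0.0036 over all features. Of all features, 48.6% had a log2 fold change above 0 and 4.2% were higher in responders at that p. H2-T23, which encodes Qa-1, the ligand of CD94 with NKG2A or NKG2C, was at 222, 253, 208, 277 and 223 CPM in responders 5, 9, 10, 11 and 12 and at 188, 166, 251, 218 and 175 CPM in non-responders 1, 2, 3, 6 and 7. The groups overlapped, and the log2 fold change was 0.25 ± 0.11 (SE; edgeR adjusted p = 0.604). Clec2i, a lectin-like gene whose product binds NKR-P1F (Klrb1f) and is not known as a ligand of the 10 receptors, averaged 1.86 ± 0.54 against 1.05 ± 0.24 CPM (responders first). B2m, the light chain of class I molecules, had 2345 ± 249 and 2074 ± 198 CPM. Of the cadherin genes, ligands of KLRG1, Cdh1 had 6.04 ± 1.21 and 5.71 ± 0.97 CPM and Cdh2 0.816 ± 0.293 and 0.706 ± 0.185 CPM, with no test passed. Cdh4 was under the filter, with at most 7 counts in a tumor and a lower mean in responders (0.075 ± 0.095 against 0.192 ± 0.075 CPM).

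Of the 17 other receptor genes of the NK gene complex 9 passed the filter, all 9 with a log2 fold change above 0, a median of 0.45 and 3 with an unadjusted p below 0.05. These were Klrb1f (log2 fold change 0.75 ± 0.28, SE), Klra3 (0.81 ± 0.35) and Klrk1 (0.33 ± 0.14). At that p 4.2% of all features were higher in responders, and 48.6% had a log2 fold change above 0. Klrb1f encodes a further NKR-P1 receptor, Klra3 encodes Ly49C, and Klrk1 encodes NKG2D, the receptor for stress-induced ligands, with 10.7 ± 1.9 against 8.61 ± 1.51 CPM. Klra2 had a log2 fold change of 0.0028 ± 0.17. Klra6 had 0 counts in every tumor. Klra3 shares 31.8% of its 31-base words with Klra9 and its counts were at most 32, so its value is uncertain.

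Receptors of the immunoglobulin and SLAM families followed. All 11 measured genes passed the filter and had a log2 fold change above 0, with a median of 0.42, and 5 had an unadjusted p below 0.05. The shares of all features were 48.6% above 0 and 4.2% higher in responders at that p. Slamf7, a self-binding SLAM receptor, averaged 6.37 ± 1.44 against 4.27 ± 0.93 CPM (responders first). Cd96, a receptor for nectin-like proteins, had 1.90 ± 0.99 and 0.723 ± 0.459 CPM, and Ly9, also of the SLAM family, 10.7 ± 1.8 and 8.28 ± 1.16 CPM. Fcgr3, the low-affinity receptor for IgG that macrophages carry too, was the most abundant of the list.

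Of 15 genes for adaptors and early signaling 11 had a log2 fold change above 0, and 5 were higher and 1 lower in responders at an unadjusted p below 0.05. Among all features, 48.6% were above 0 and 4.2% were higher at that p. The lower gene was Plcg2, a phospholipase, with a log2 fold change of −0.15 ± 0.07 (SE), and the other genes below 0 were the phosphatase genes Ptpn11 and Inpp5d and the SLAM adaptor gene Sh2d1b1. Hcst, which encodes DAP10, the adaptor of NKG2D, was at 1.17, 1.75, 1.63, 2.51 and 1.84 CPM in responders 5, 9, 10, 11 and 12. It was at 1.10, 0.786, 0.705, 0.993 and 0.626 CPM in non-responders 1, 2, 3, 6 and 7. Here every responder, tumor 5 included, lay above every non-responder, with a log2 fold change of 1.09 ± 0.23 (SE; edgeR adjusted p = 0.580). Such a separation was seen in 0.336% of all features tested. Hcst was named for its p, the smallest of its list, and its counts were 14 to 77. Sh2d1b2, an adaptor of SLAM receptors, had a log2 fold change of 1.26 ± 0.43 and Tyrobp (DAP12), the adaptor of Ly49D, Ly49H and NKG2C, of 0.27 ± 0.10 (SE). Tyrobp is also abundant in myeloid cells, and it ranged from 62.9 to 92.8 CPM in responders and from 54.9 to 70.6 CPM in non-responders.

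The list of NK cell identity and effector genes was the longest and held the most genes below an unadjusted p of 0.05. Of its 20 genes 19 passed the filter and 18 had a log2 fold change above 0, with a median of 0.86 and 13 with an unadjusted p below 0.05. All 13 were higher in responders, as were 4.2% of all features at that p. By share the list of ILC1 and tissue-resident cells ranked higher, with 3 of 4 genes. Xcl1, a chemokine for cross-presenting dendritic cells, was at 1.87, 2.31, 1.78, 1.89 and 2.19 CPM in responders and at 1.01, 0.965, 1.16, 1.49 and 1.10 CPM in non-responders, in the order used above. The groups did not overlap, as in 0.336% of all features, and responder 5 was not the lowest responder. Xcl1 was named for its p, the smallest of its list. Gzmb had 64.3 ± 31.6 and 23.2 ± 7.3 CPM and Ccl5, a chemokine of T cells and NK cells, 35.8 ± 20.1 and 16.3 ± 3.3 CPM (SD, n = 5). In responder 5 Gzmb was at 19.3 CPM and Ccl5 at 14.3 CPM, both inside the range of the non-responders. The adjusted p of Xcl1, Gzmb and Ccl5 was 0.580 in edgeR.

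Since the receptor genes moved together, the windows around their transcription starts were read from RefSeq (GRCm38.p6). Windows were found for 8 of the 10 genes, all but Klrd1 and Klrg1, 13 windows in all, since some genes have more than 1 start. The core letters of the RUNX motif, TGTGGT, on either strand occurred in 7 windows of 5 genes (Ncr1, Klrb1c, Klrc1, Klrc2 and Klre1), and in 16.8% of 32851 mouse promoter windows of the same length. The T-box core TCACAC occurred in windows of Ncr1 and Klre1 and in 14.5% of all windows. The STAT motif TTCNNNGAA occurred in 1 window of Klra7 and in 8.3% of all windows. In the windows of these genes no match of one motif overlapped a match of another. The windows of Ncr1 (chr7:4337465-4337764, plus strand), Klrc1 (chr6:129678924-129679223, minus strand) and Klrc2 (chr6:129660547-129660846, minus strand) are printed because they belong to the NK marker gene and to the pair of receptors with opposite function. They read 5′ to 3′ on the gene's strand, with TGTGGT or its reverse complement in capitals.
Ncr1: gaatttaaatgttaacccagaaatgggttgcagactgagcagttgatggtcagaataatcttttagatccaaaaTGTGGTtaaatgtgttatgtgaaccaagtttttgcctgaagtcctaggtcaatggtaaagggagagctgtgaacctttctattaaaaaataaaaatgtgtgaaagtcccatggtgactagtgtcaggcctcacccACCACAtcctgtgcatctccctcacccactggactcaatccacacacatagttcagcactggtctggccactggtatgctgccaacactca
Klrc1: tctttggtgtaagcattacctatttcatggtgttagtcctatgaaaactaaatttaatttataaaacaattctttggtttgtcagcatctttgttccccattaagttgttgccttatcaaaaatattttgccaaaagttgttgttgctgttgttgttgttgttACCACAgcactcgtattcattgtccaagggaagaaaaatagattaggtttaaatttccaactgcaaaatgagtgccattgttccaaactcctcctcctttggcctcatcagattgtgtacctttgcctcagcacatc
Klrc2: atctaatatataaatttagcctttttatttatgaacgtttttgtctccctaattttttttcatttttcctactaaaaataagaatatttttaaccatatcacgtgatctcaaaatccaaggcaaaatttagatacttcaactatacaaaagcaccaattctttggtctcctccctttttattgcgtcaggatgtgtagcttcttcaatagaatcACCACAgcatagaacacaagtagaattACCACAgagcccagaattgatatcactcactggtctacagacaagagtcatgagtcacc
Ncr1 and Klrc2 hold 2 such matches each and Klrc1 holds 1. A match describes these letters and not a bound site, and the second start of Ncr1 and of Klrc2 gives a window that overlaps the one shown.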

How the data were processed

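Resected pieces of 10 tumors were sequenced (5 responders, 5 non-responders, grouped by the label for response). Reads were quantified by the authors with Kallisto against mm10 (GRCm38 in the labels) and collapsed from transcripts to genes by tximport, and the deposited values are unnormalized estimated counts. Rows of one symbol were summed, 9580 rows without a symbol were kept as features, and estimated counts were rounded to whole numbers. No column was left without a sample. Of the 45 pairs of tumors none agreed within sampling noise (lowest chi-square per gene 5.18). Features over 0.366 CPM in at least 3 tumors, the filter the methods give for the time course, were tested with edgeR 4.0.16 (quasi-likelihood, TMM, Benjamini-Hochberg over 15767 features, threshold 0.05), and DESeq2 1.42.0 and voom of limma 3.58.1 served as alternatives, all under R 4.3.3. The biological coefficient of variation was 10.4%. Standard errors were derived from edgeR's F statistic, as the size of the log2 fold change divided by its square root. Ratios were tested with exact two-sided permutation tests over 252 assignments and correlations with 100000 resamples, on log2(CPM + 1), in Python 3.11.15. Other alternatives changed the scaling, filter, pseudocount and covariates, or left out each tumor in turn. Transcript lengths, positions and 31-base words came from GENCODE vM21. The test was also run on counts simulated from the means and dispersions of these tumors, and its outcome is not given here. The receptor genes and all lists were chosen with earlier results of these data known. Named were the 10 receptors, the 3 genes of smallest p in each list of receptors, adaptors, ligands and NK genes, 4 fixed markers, the 8 genes most like Ncr1, and further list members named after their values were seen. Labels do not name the mice, so p-values measure the spread between tumors.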

Additional observations from a re-analysis of the deposited data

Results flagged for a closer look

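In 24 groups of 5 tumors (the levels of the receptor genes and the log2 ratios), the lowest or highest value was compared with the rest by the gap to its neighbor over the range, against Dixon's critical value of 0.71. Chance would mark about 1.2 of them, and 2 were marked. Klrd1 in responder 5 was at 1.396 on the log2(CPM + 1) scale, where the other responders lay between 2.618 and 2.851, with a gap of 0.84 of the range. The same tumor was the lowest responder in all 7 receptor genes past the filter and had the lowest T cell sum, 36.4 CPM, of the 10 tumors. The log2 ratio of Ncr1 to Cd3e in non-responder 6 was 0.5017, where the other non-responders lay between −0.3258 and −0.08844, with a gap of 0.713 of the range. In that tumor Ncr1 was the highest among the non-responders (4.38 CPM) and Cd3e the second lowest (2.80 CPM).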

How the results depend on the processing

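All 7 receptor genes past the filter kept a log2 fold change above 0 in each of 19 alternatives (133 of 133 values). The number of features with an adjusted p below 0.05 was 1 with DESeq2 and 0 to 9 when a tumor was left out, with 9 without responder 5. The number of the 7 genes with an unadjusted p below 0.05 was 3 with limma voom, 0 with Ptprc as a covariate, 3 with Cd3e as a covariate and 2 to 7 when a tumor was left out (2 without responder 11), where 4.41%, 1.43%, 3.18% and 2.71% to 6.84% of all features were higher in responders at that p. With 1 tumor left out, the difference in the log2 ratio of Ncr1 to Ptprc ran from 0.333 to 0.6503, the latter without responder 5 (exact permutation p = 0.0159), that of Ncr1 to Cd3e from 0.3743 to 0.5811, with the unadjusted p above 0.05 in 8 of 10 cases, and that of Klrc1 to Klrc2 from 0.1716 to 0.3662, the latter without non-responder 1 (exact permutation p = 0.0397), and with a pseudocount of 0.5 or 0.1 CPM this last difference was 0.22 or 0.13 (exact permutation p = 0.302 and 0.69). These p-values are not adjusted over the ratios. Only genes outside the receptors changed sign: with Ptprc as a covariate the log2 fold change was −0.14 for Cd3e, −0.29 for Cd8a, −0.030 for Adgre1 and −0.0034 for Gimap6, with Cd3e as a covariate it was −0.064 for Cd8a, and with a tumor left out Cd8a ran from −0.026 to 0.38. The cause of these shifts was not tested. No paired analysis was possible because the tumor numbers are unique to each group. Counts were low, at 87 or fewer in a tumor, for Klrb1c, Klrc2, Klra4, Klra7 and Klra8, which limits the precision of their values.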

Other observations

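Markers of other cells were measured in the same RNA. Beside them, 663 of all 15767 features tested were higher and 631 lower in responders at an unadjusted edgeR p below 0.05, and 48.6% were above 0. Of 8 monocyte and macrophage genes 6 had a higher mean in responders, 1 with an unadjusted edgeR p below 0.05 in each direction (Ly6c2 higher, Ccr2 lower), and their sum was 1692 ± 183 CPM against 1589 ± 164 CPM (responders first, as below). Plasmacytoid dendritic cell genes summed to 403 ± 18 and 398 ± 26 CPM, with a higher mean in responders for 2 of 4 genes, of which Bst2 had an unadjusted p below 0.05. B cell genes were sparse in both groups, with sums of 1.99 ± 0.22 and 2.04 ± 0.47 CPM. Of 8 fibroblast and fibrosarcoma genes 2 had a higher mean in responders and 2 were lower at an unadjusted p below 0.05, the collagen genes Col1a1 (921 ± 89 against 1115 ± 133 CPM) and Col3a1 (2081 ± 186 against 2395 ± 211 CPM). All 6 skeletal muscle genes had a lower mean in responders, 2 at an unadjusted p below 0.05, and summed to 104 ± 44 and 143 ± 39 CPM. All 5 adipocyte genes had a lower mean in responders as well, 1 at an unadjusted p below 0.05, with sums of 25.8 ± 7.6 and 29.8 ± 12.1 CPM. Keratinocyte genes summed to 17.1 ± 1.6 and 17.4 ± 1.1 CPM, and Krt1 had 0 counts in every tumor. No gene of these lists passed the adjusted threshold in edgeR.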
